A study of Mus musculus with 12 samples.

Results

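The hearts of mouse embryos in which both copies of Asb2 were floxed were compared directly with hearts that carried a label for deletion of Flna at embryonic day 9.5, a stage at which the looped heart tube begins to form chambers. The comparison took the 3 Asb2 cKO libraries (cKO, conditional knockout) and the 3 Flna-labelled libraries of a series of 12 RNA sequencing libraries. Genes listed in the deposited tables of both groups with a mean of at least 1 CPM (read counts scaled to library size, as the deposited tables give them) over these 6 libraries were tested. Of 15663 genes in the joined tables, 14767 were listed in both tables and 13992 reached that level. The lowest mean among the tested genes was 1.00092 CPM and the highest among the 775 genes left out was 0.999943 CPM.

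All groups were labelled with strain C57/BL 6 and with the Cre driver NkxCre, so floxed alleles are recombined where that driver is active and not in every cell of the dissected heart. Asb2 cKO embryos were NkxCre.Asb2fl/fl. The Flna-labelled embryos were NkxCre.Asb2fl/+.Flnafl/fl, with 1 floxed Asb2 copy. Of the other groups, the control was NkxCre.Asb2fl/+ and the double mutant, labelled with both genes as fl/fl, was NkxCre.Asb2fl/fl.Flnafl/fl, with 3 libraries each. The series' design text speaks of single and double mutants and of 2 kinds of control, without naming the latter. The groups compared here differ in their labelled genotype at both Asb2 and Flna, so that a difference between them cannot be ascribed to either gene alone. Whether a library held 1 embryo or a pool is not in the labels, so p-values speak of the spread among libraries, which may be technical.

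ASB2 gives a cullin-5 ubiquitin ligase its substrates, the best known of which are the filamins, large proteins that crosslink actin filaments. Cells sense oxygen through prolyl hydroxylases of the EGLN family, which mark the HIF alpha subunits for destruction, and HIF, when stable, switches on glycolysis, glucose uptake and its own hydroxylases. Shortage of amino acids, heme or folding capacity activates kinases that raise ATF4, which drives amino acid synthesis and transport. At this stage, primitive red cells filled with embryonic globins circulate through the heart.

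Differences are given as Asb2 cKO minus Flna-labelled on the scale of log2(CPM + 0.5), on which changes of low genes look too small. Each comes with its standard error (SE) from limma's moderated test and a p adjusted by Benjamini-Hochberg over the 13992 genes. A gene is called higher or lower where this adjusted p is under 0.05. In bulk tissue, fewer cells of a type and less RNA per cell cannot be told apart. Reads in listed genes numbered 25954539 to 37303648 in the 6 libraries, and 1 read was worth 0.0253 to 0.038 CPM. Cardiomyocyte genes were abundant in all of them, with 1635 to 3147 CPM of Tnnt2 (cardiac troponin T). Globin transcripts made up 0.0511 to 0.117% of the signal of Asb2 cKO libraries and 0.304 to 0.411% of that of Flna-labelled libraries, and the 2 sets did not overlap (exact two-sided permutation test, p = 0.1, the smallest p that 3 against 3 libraries allow). Xist, the RNA of the inactive X chromosome, stood at 571, 0.38 and 377 CPM in the Asb2 cKO and at 0.0506, 0.123 and 0.367 CPM in the Flna-labelled libraries (log2 difference 6.43 ± 2.84 SE, adjusted p = 0.193). The Y-linked gene Ddx3y stood at 19.3, 84.4 and 32.2 CPM in the Asb2 cKO and at 68.3, 61.9 and 65.9 CPM in the Flna-labelled libraries. Asb2 cKO libraries 1 and 3 therefore held both Xist and Y transcripts, while the Flna-labelled libraries held Y transcripts with hardly any Xist, although Flna is X-linked and the label gives it as fl/fl. Kdm6a, an X-linked histone demethylase that escapes X inactivation, was higher in the Asb2 cKO, at 70.8, 58.5 and 61.2 CPM against 38.7, 34.6 and 37.5 CPM (log2 difference 0.77 ± 0.12 SE, adjusted p = 0.00641). It alone was called among 9 tested genes of X inactivation and the Y chromosome, against 15.7% of all genes. The median log2 difference of the 9 was -0.02. Asb2 cKO library 2, with hardly any Xist, held 58.5 CPM of Kdm6a. Beyond a fit with Xist as a covariate, the part of sex make-up in the differences between the groups was not tested.

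The targeted genes did not separate the groups by their labels. Asb2 (minus strand of chromosome 12 from 103321142 to 103356001 on GRCm38, ENSMUSG00000021200) had 77.8, 163 and 115 CPM in the Asb2 cKO and 125, 113 and 197 CPM in the Flna-labelled libraries, and the groups overlapped (log2 difference -0.31 ± 0.28 SE, adjusted p = 0.457). Flna (minus strand of chromosome X from 74223461 to 74249820 on GRCm38, ENSMUSG00000031328), filamin A, had 1032, 869 and 725 CPM in the Asb2 cKO and 958, 1011 and 989.5 CPM in the libraries labelled as Flna-deleted (log2 difference -0.19 ± 0.15 SE, adjusted p = 0.397). Flna was thus not lower in the libraries whose label names its deletion, although gene totals need not show the loss of a floxed exon. The control libraries had 289, 183 and 218 CPM of Asb2 and 490.3, 554 and 721 CPM of Flna.

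Flnc, the filamin of striated muscle, was higher in the Asb2 cKO. It stood at 758, 1544 and 954 CPM in the Asb2 cKO and at 441, 426 and 716 CPM in the Flna-labelled libraries (log2 difference 1.02 ± 0.28 SE, adjusted p = 0.0424), a call lost without Asb2 cKO library 2 or 3 or Flna-labelled library 1 or 2 (adjusted p = 0.0878 to 0.13), without limma's trend and robust options (adjusted p = 0.0809) and with the length trend removed (adjusted p = 0.0573). Ube2f, the conjugating enzyme that attaches NEDD8 to CUL5, was lower, at 34.2, 31.5 and 41.9 CPM against 56.9, 47 and 65.8 CPM (log2 difference -0.65 ± 0.16 SE, adjusted p = 0.0293), a call lost without Asb2 cKO library 1 or 2 or Flna-labelled library 1 or 3 (adjusted p = 0.0528 to 0.0989) and without the trend and robust options (adjusted p = 0.063).

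**Figure D1:**
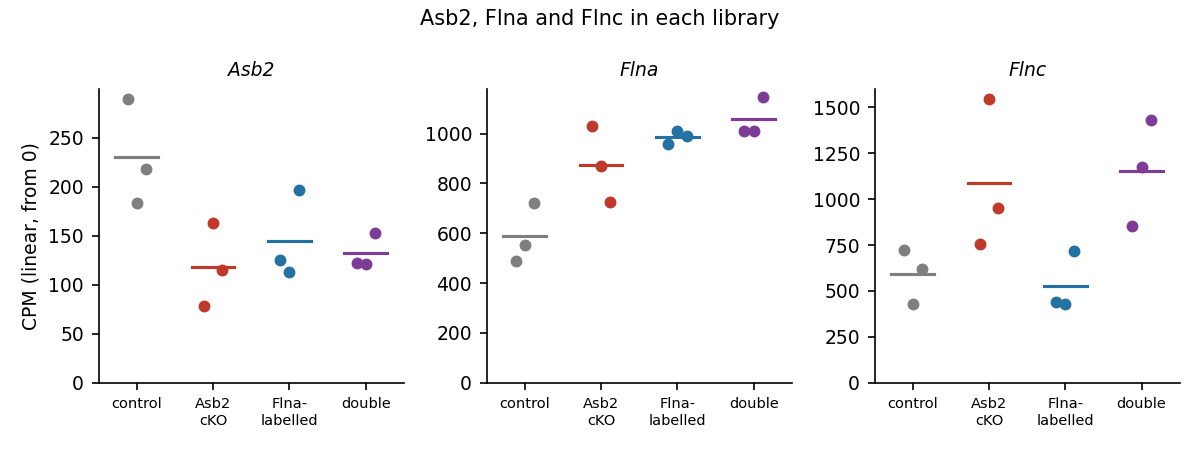
Levels of Asb2, Flna and Flnc (CPM, linear axis from 0) in each library of the 4 groups, with a bar at the group mean. The Flna-labelled libraries held 958 to 1011 CPM of Flna, inside the range of the Asb2 cKO libraries. All Asb2 cKO libraries lay above all Flna-labelled libraries for Flnc, and 40% of all genes tested did not overlap.

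Over all genes tested, 2192 (15.7%) were called, 1138 higher in the Asb2 cKO (8.13% of those tested) and 1054 lower (7.53%). Of these, 439 were at least 2-fold higher and 193 at least 2-fold lower, and 72 and 29 passed 4-fold. The libraries of the groups did not overlap for 5601 genes (40% of those tested), and the median log2 difference of all genes was -0.03. Higher calls made up 51.9% of all calls on the deposited scale. With each library rescaled to the total of its listed genes they made up 42.4% of 2287 calls and the median was -0.07, and leaving the globin genes out of that total as well gave 41.5% of 2331 calls and a median of -0.08. The first of these scalings was added after the data were seen. The first principal component held 55.6% of the variance and separated the groups, with Asb2 cKO library 2 and Flna-labelled library 2 at its ends. The number of calls depended on single libraries, at 615 without Flna-labelled library 1, 722 without Flna-labelled library 2, 1158 without Asb2 cKO library 3 and 1257 without Asb2 cKO library 2. Calls shared with the full comparison numbered 603, 711, 1055 and 1197 in these, and each had the same direction.

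Genes listed in the table of 1 group alone had no value for the other and were not tested. Of 444 listed with the Asb2 cKO only, 151 had a mean of at least 1 CPM there, and the highest was Chac1, a glutathione-degrading enzyme of the ATF4 response, at 13.7, 32.2 and 18.5 CPM. Of 238 listed with the Flna-labelled group only, 53 reached that level. Chac1 was chosen after its values were seen.

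**Figure D2:**
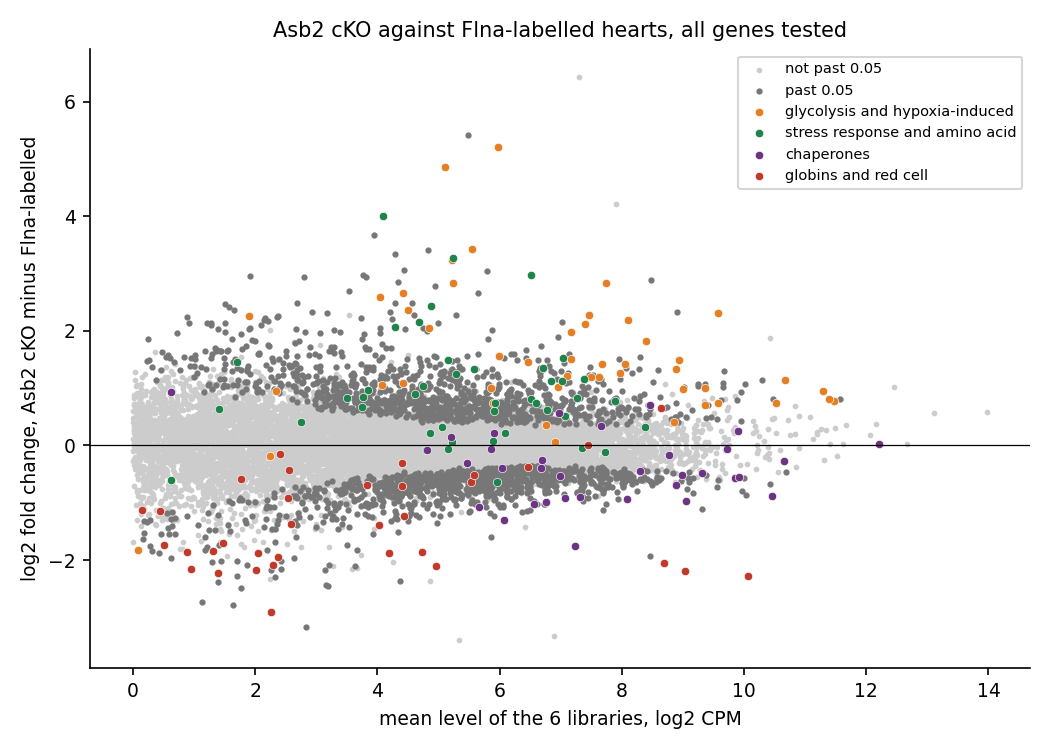
Difference between Asb2 cKO and Flna-labelled hearts (log2 fold change, vertical axis) against the mean level over the 6 libraries (log2 CPM, horizontal axis) for the 13992 genes tested, with called genes in dark grey and 4 groups of lists in colour. Glycolysis and hypoxia-induced genes lie mostly above 0, chaperones and red cell genes mostly below 0.

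Genes of the hypoxia response were higher in the Asb2 cKO hearts. Of 25 hypoxia-induced genes outside glycolysis, 23 were higher and 1 was lower, against 8.13% and 7.53% of all genes, with a median log2 difference of 1.99 against -0.03 for all genes tested. Of 23 genes of glycolysis and glucose uptake, 19 were higher and none was lower, with a median of 0.99, and the 19 came to 11 without Flna-labelled library 1 and 12 without library 2. In the oxygen sensing list, 3 of 10 genes were higher and 3 were lower, and these were 2 and 0 without Flna-labelled library 1 and 2 and 1 without library 2.

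The stretch before the start of Ddit4 and of Egln3 is shown because both genes were called higher and hold the core of a hypoxia response element there. Capitals mark that core, the letters ACGTG, searched on both strands. The sequences are the 250 bases upstream of the RefSeq start on GRCm38.p6, written 5′ to 3′ on the gene's strand, at chr10:59951771-59952020 (minus) for Ddit4 and chr12:54203875-54204124 (minus) for Egln3.
Ddit4: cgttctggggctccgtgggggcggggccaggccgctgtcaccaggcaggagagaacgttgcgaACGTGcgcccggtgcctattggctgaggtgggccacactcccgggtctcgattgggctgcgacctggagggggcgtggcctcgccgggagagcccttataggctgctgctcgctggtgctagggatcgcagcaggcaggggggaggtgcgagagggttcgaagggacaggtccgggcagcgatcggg
Egln3: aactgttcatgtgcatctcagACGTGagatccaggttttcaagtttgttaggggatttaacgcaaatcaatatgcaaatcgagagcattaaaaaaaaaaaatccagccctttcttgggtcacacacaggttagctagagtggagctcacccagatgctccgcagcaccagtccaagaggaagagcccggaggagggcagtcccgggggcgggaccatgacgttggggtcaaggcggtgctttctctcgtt
The match starts 187 bases before the start of Ddit4 and 229 bases before that of Egln3. Over windows of 250 bases before to 50 bases after a start, ACGTG was found for 28 of the 38 called-higher genes of the oxygen sensing, glycolysis and hypoxia lists that have a window (73.7%). It was found for 36.3% of the 789 genes called higher with a window, for 29.4% of the 9724 tested genes with a window and in 19.6% of all 32851 windows. A match describes these letters and is not a measured binding site.

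Ndufa4l2, a mitochondrial protein that lowers complex I activity in hypoxia, had the smallest adjusted p. It stood at 53.2, 80.7 and 66.7 CPM in the Asb2 cKO and at 1.42, 1.85 and 2.13 CPM in the Flna-labelled libraries (log2 difference 4.87 ± 0.21 SE, adjusted p = 1.55e-05). Stc2, a secreted glycoprotein, stood at 75.4, 116 and 67.4 CPM against 6.35, 8.09 and 7.53 CPM (log2 difference 3.44 ± 0.21 SE, adjusted p = 0.000156). Ddit4 (REDD1), an inhibitor of mTORC1, stood at 355, 450.4 and 320.4 CPM against 53.8, 61.8 and 41.8 CPM (log2 difference 2.83 ± 0.17 SE, adjusted p = 0.000156). For all 3, the lowest Asb2 cKO library lay far above the highest Flna-labelled library, and 40% of all genes tested did not overlap. Ndrg1, a stress-induced cytoplasmic protein, stood at 53.1, 81.7 and 67.8 CPM against 6.02, 9.2 and 5.18 CPM (log2 difference 3.24 ± 0.23 SE, adjusted p = 0.000225). Vegfa, the growth factor of blood vessels, stood at 181, 444 and 211 CPM against 50.6, 57.2 and 69.9 CPM (log2 difference 2.12 ± 0.30 SE, adjusted p = 0.00487), and was added after its values were seen. Asb2 cKO library 2 was the highest of the 3 for each of these 5 genes. Of the remaining list members, Lox did not pass (log2 difference 0.96, adjusted p = 0.0952) and Anxa1, a membrane-binding protein with little signal, was lower (log2 difference -1.82), a call lost without Flna-labelled library 1 (adjusted p = 0.0533) or 2 (adjusted p = 0.0521) and with Xist as a covariate (adjusted p = 0.0585).

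Glucose metabolism genes followed the same direction. Eno2, the enolase first known from neurons, stood at 76.9, 179 and 114 CPM in the Asb2 cKO and at 1.77, 2.77 and 3.75 CPM in the Flna-labelled libraries (log2 difference 5.21 ± 0.32 SE, adjusted p = 0.000196), the largest difference of the list. Slc2a3, the glucose transporter GLUT3, stood at 1181, 1526 and 1086 CPM against 171, 279 and 338 CPM (log2 difference 2.31 ± 0.24 SE, adjusted p = 0.00165). Aldoc, an aldolase, stood at 25.6, 28.4 and 32 CPM against 3.67, 4.95 and 4.48 CPM (log2 difference 2.59 ± 0.18 SE, adjusted p = 0.000225). Pgk1, a kinase that makes ATP in glycolysis and lies on the X chromosome, stood at 252, 275 and 294 CPM against 109, 113 and 138 CPM (log2 difference 1.19 ± 0.13 SE, adjusted p = 0.00156). No Asb2 cKO library overlapped a Flna-labelled library for these 4 genes, and none of the calls was lost by leaving out a library. The 4 were picked among called genes, and 40% of all genes tested did not overlap. Several glycolytic enzymes have near-identical pseudogene copies that can take part of their reads, so their levels are less certain than their direction.

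Within the oxygen sensors, the hydroxylases differed among themselves. Egln3 stood at 74, 144 and 81.1 CPM in the Asb2 cKO and at 10.04, 11.3 and 12 CPM in the Flna-labelled libraries (log2 difference 3.05 ± 0.23 SE, adjusted p = 0.000472), and Egln1, the main HIF hydroxylase, at 374, 592 and 438 CPM against 144, 146 and 187 CPM (log2 difference 1.54 ± 0.18 SE, adjusted p = 0.00218). Both were higher in every Asb2 cKO library, whereas Egln2 was lower, at 78.5, 73.4 and 97.7 CPM against 136, 146 and 120.5 CPM (log2 difference -0.69 ± 0.14 SE, adjusted p = 0.0138). Hif1a, the alpha subunit itself, was also lower at the RNA level, at 190.3, 192 and 231 CPM against 299.8, 291 and 375 CPM (log2 difference -0.65 ± 0.14 SE, adjusted p = 0.0181). The calls of Egln2 and Hif1a were lost without Flna-labelled library 1 (adjusted p = 0.0589 and 0.0558), and that of Egln2 also without library 2 (adjusted p = 0.0615). Vhl, the ligase subunit that recognises hydroxylated HIF, had a difference of log2 difference 0.17 (SE 0.11, adjusted p = 0.301).

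**Figure D3:**
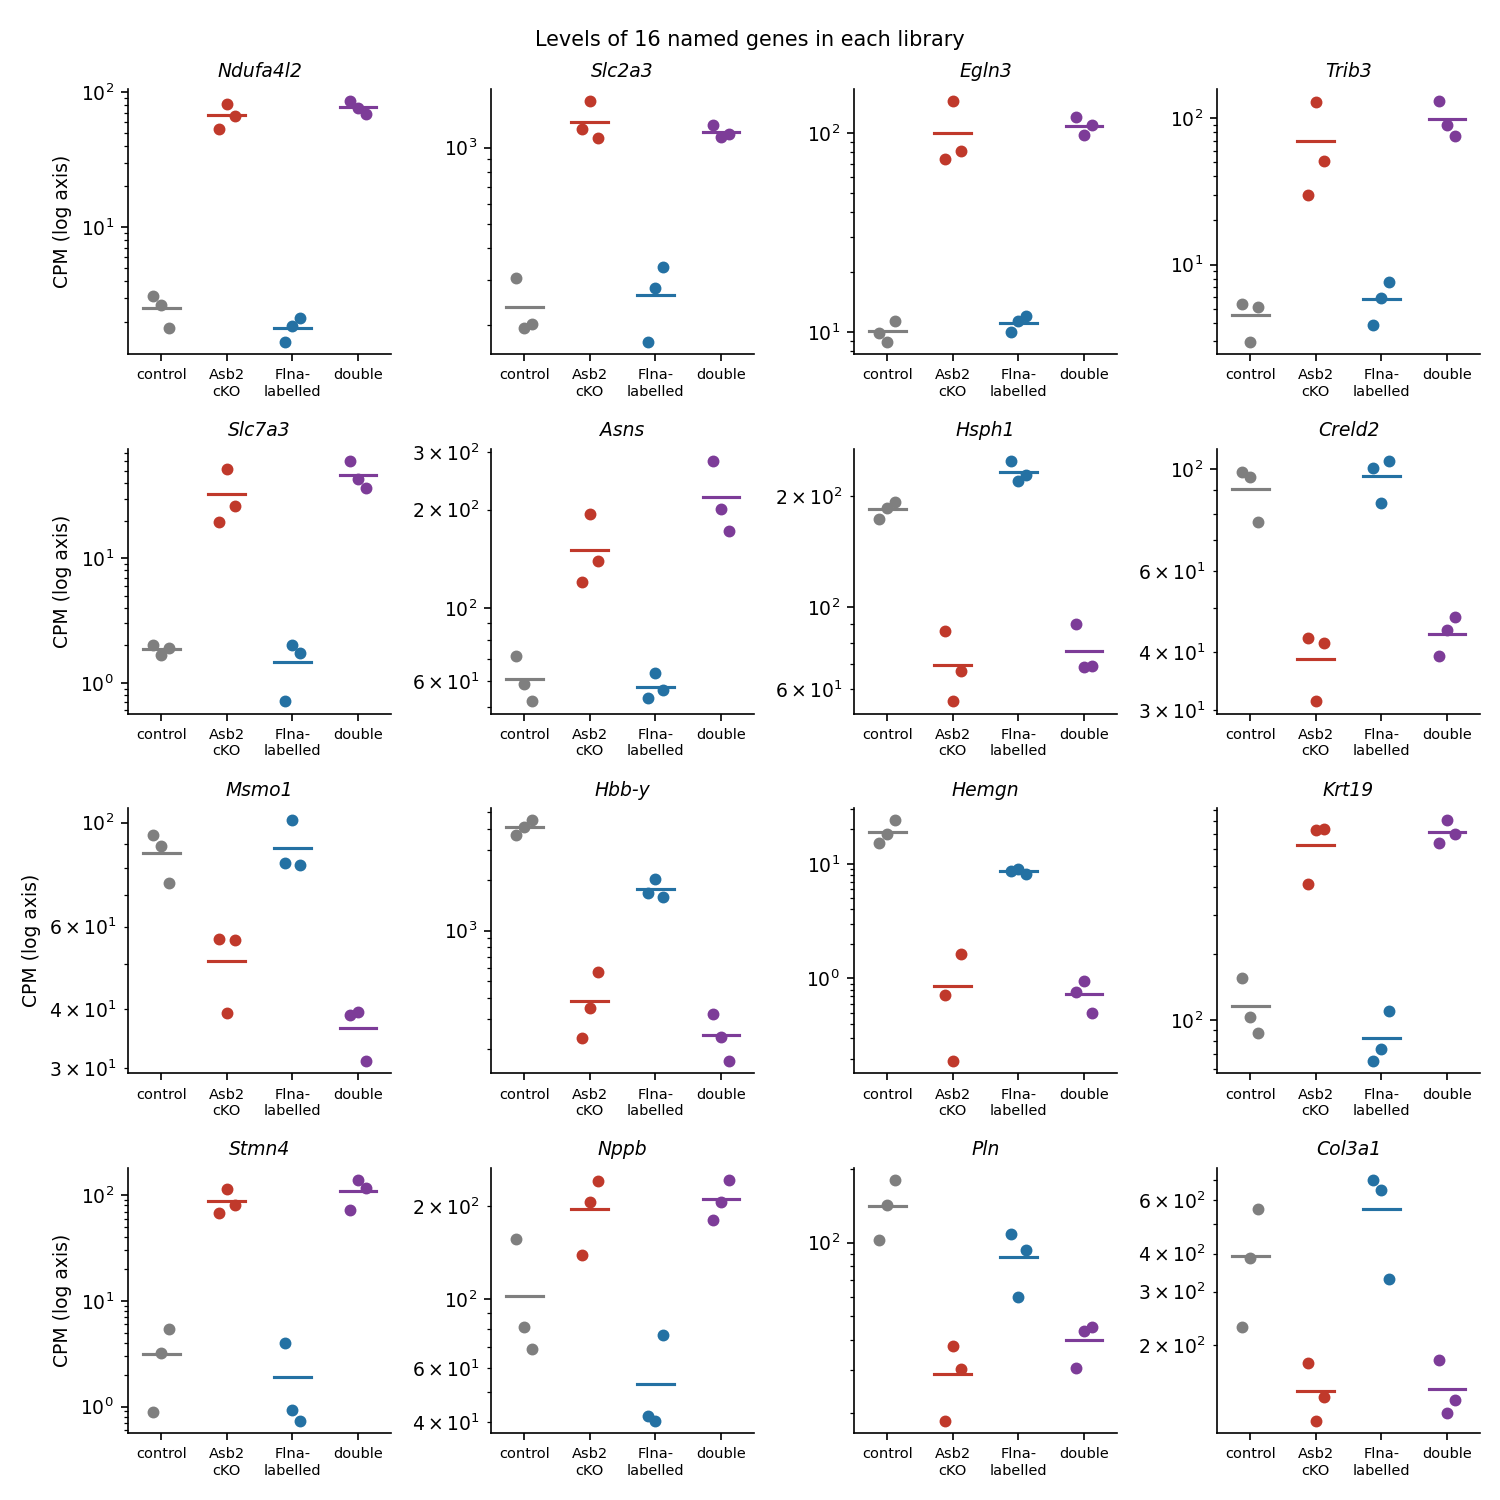
Levels of 16 genes (CPM, log axis) in each library of the control, Asb2 cKO, Flna-labelled and double mutant groups, with a bar at the group mean. The 16 were picked from genes called on the Asb2 cKO and Flna-labelled libraries, and none overlaps between these groups. Of all genes tested, 40% did not overlap, so this is no separate evidence. The double mutant libraries lie on the side of the Asb2 cKO.

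Genes of the ATF4 pathway and of amino acid supply were higher in the Asb2 cKO. Of 13 tested regulators and targets of the integrated stress response (16 listed), 9 were higher and none was lower, with a median log2 difference of 0.84, and the count was 5 without Flna-labelled library 1 or 2. Of 15 genes of serine, one-carbon, asparagine and proline synthesis, 8 were higher and 1 (Shmt1) was lower, with 4 and 0 without Flna-labelled library 1, and 5 and 0 without library 2. The Shmt1 call was also lost without Asb2 cKO library 2 or 3 and Flna-labelled library 3. Of 15 amino acid transporters, 6 were higher and none was lower. The shares over all genes tested were 8.13% higher and 7.53% lower. The cytosolic tRNA synthetases did not move one way, with 4 of 20 higher and 3 lower, a median of 0.03, and 0 calls without Flna-labelled library 1. Of the synthetases, 1 was higher and none lower without Flna-labelled library 2 or 3 or Asb2 cKO library 3, 1 and 2 without Asb2 cKO library 2, and 3 and 5 without Asb2 cKO library 1.

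The upstream stretches of Atf3 and Vldlr are shown because both genes were called higher and hold the composite amino acid response element there. Capitals mark the letters TGATGNAAN, searched on both strands and here found on the opposite strand. The 250 bases upstream of the RefSeq start on GRCm38.p6 lie at chr1:191183334-191183583 (minus) for Atf3 and chr19:27216770-27217019 (plus) for Vldlr.
Atf3: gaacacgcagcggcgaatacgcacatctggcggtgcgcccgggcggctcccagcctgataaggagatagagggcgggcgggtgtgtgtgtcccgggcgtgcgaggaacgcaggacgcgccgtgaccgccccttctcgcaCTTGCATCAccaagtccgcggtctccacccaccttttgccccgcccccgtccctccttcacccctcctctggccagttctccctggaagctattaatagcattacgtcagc
Vldlr: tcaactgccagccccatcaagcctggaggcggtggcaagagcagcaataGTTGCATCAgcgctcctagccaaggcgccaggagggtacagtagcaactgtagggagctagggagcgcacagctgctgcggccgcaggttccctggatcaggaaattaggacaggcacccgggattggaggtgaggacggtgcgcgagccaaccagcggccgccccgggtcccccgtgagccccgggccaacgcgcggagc
The match starts 111 bases before the start of Atf3 and 201 bases before that of Vldlr. These letters were found for 9 of 22 genes of the stress response, synthesis, transporter and synthetase lists that were called higher and have a window (40.9%), for 3.8% of all genes called higher, for 2.64% of the tested genes and in 3.95% of all windows.

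Atf3, a transcription factor downstream of ATF4, stood at 39.2, 55.8 and 55.5 CPM in the Asb2 cKO and at 8.63, 9.04 and 8.74 CPM in the Flna-labelled libraries (log2 difference 2.43 ± 0.17 SE, adjusted p = 0.000225). Vldlr, a lipoprotein receptor, stood at 106, 254 and 129.6 CPM against 17.1, 19 and 20.5 CPM (log2 difference 2.98 ± 0.28 SE, adjusted p = 0.00113). Trib3, a pseudokinase induced by ATF4, stood at 29.9, 128 and 51 CPM against 3.85, 5.91 and 7.57 CPM (log2 difference 3.27 ± 0.47 SE, adjusted p = 0.00589). Of the Asb2 cKO libraries, library 2 held the most and library 1 the least of all 3 transcripts. Sesn2, a leucine sensor, stood at 35.1, 75.9 and 49.3 CPM against 19.3, 17.5 and 16.7 CPM (log2 difference 1.49 ± 0.24 SE, adjusted p = 0.00742). Atf4 itself, added after its values were seen, stood at 245, 358 and 295 CPM against 154, 175 and 189 CPM (log2 difference 0.78 ± 0.15 SE, adjusted p = 0.0137), and its call was lost without Flna-labelled library 1 (adjusted p = 0.0648).

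Among the enzymes, Asns (asparagine synthetase) stood at 120.5, 194 and 139 CPM in the Asb2 cKO and at 53.2, 63.6 and 56.2 CPM in the Flna-labelled libraries (log2 difference 1.36 ± 0.17 SE, adjusted p = 0.00266). Shmt2, the mitochondrial serine hydroxymethyltransferase, stood at 216, 259 and 219.6 CPM against 103, 111 and 95.8 CPM (log2 difference 1.16 ± 0.12 SE, adjusted p = 0.00133). Its mitochondrial partner Mthfd1l stood at 161, 197 and 177 CPM against 69.6, 85.3 and 88.6 CPM (log2 difference 1.13 ± 0.13 SE, adjusted p = 0.00208). Gpt2, which makes alanine in mitochondria, stood at 65.3, 74.3 and 64.7 CPM against 35.6, 29.3 and 18.4 CPM (log2 difference 1.33 ± 0.22 SE, adjusted p = 0.00705). The highest Flna-labelled value lay below the lowest Asb2 cKO value for each of these enzymes, and 40% of all genes tested did not overlap. Slc7a3, a cationic amino acid transporter, went from 0.708 to 2 CPM in the Flna-labelled libraries to 19.5, 51.7 and 26.3 CPM in the Asb2 cKO (log2 difference 4.01 ± 0.39 SE, adjusted p = 0.00124). The 2 chains of the leucine transporter were higher together, Slc7a5 at 158, 259.8 and 175 CPM against 60.9, 67.2 and 70.9 CPM (log2 difference 1.53, adjusted p = 0.00208) and Slc3a2 at 132, 196 and 147 CPM against 75.5, 71.6 and 67.3 CPM (log2 difference 1.12, adjusted p = 0.00314).

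Chaperone genes of the endoplasmic reticulum were lower in the Asb2 cKO, and heat shock chaperones were lower in part. Of 18 chaperones and folding enzymes of the endoplasmic reticulum, 11 were lower and none was higher, with a median log2 difference of -0.52, and 6 and 7 were lower without Flna-labelled library 1 or 2. Of 16 cytosolic and mitochondrial heat shock chaperones, 6 were lower and none was higher (2 higher without Asb2 cKO library 1), with a median of -0.12. The shares over all genes tested were 7.53% lower and 8.13% higher. Hsph1 (HSP105) stood at 86.3, 55.4 and 67 CPM in the Asb2 cKO and at 249, 219.9 and 228 CPM in the Flna-labelled libraries (log2 difference -1.75 ± 0.16 SE, adjusted p = 0.000786). Hspa8, the constitutive HSP70, stood at 406, 335 and 336 CPM against 755, 658 and 682 CPM (log2 difference -0.96 ± 0.13 SE, adjusted p = 0.00314). In the endoplasmic reticulum, Creld2 stood at 43, 31.3 and 42 CPM against 100.5, 84.2 and 104 CPM (log2 difference -1.31 ± 0.15 SE, adjusted p = 0.00208) and Hyou1 at 216, 154 and 189 CPM against 356, 349 and 356 CPM (log2 difference -0.94 ± 0.14 SE, adjusted p = 0.00487). Hspa5 (BiP), the chief chaperone of that compartment and added after its values were seen, stood at 1009, 851 and 1114 CPM against 1899, 1673 and 1861 CPM (log2 difference -0.88 ± 0.14 SE, adjusted p = 0.00683). The groups did not overlap for any of these 5 genes, nor for 40% of all genes tested. The calls of the 5 held whichever library was left out.

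Sterol synthesis genes were lower as well, 10 of 22 with none higher and a median of -0.60, against 7.53% lower and 8.13% higher among all genes. Msmo1, a sterol demethylation enzyme, stood at 56.4, 39.2 and 56.1 CPM in the Asb2 cKO and at 82, 101 and 81.3 CPM in the Flna-labelled libraries (log2 difference -0.81 ± 0.16 SE, adjusted p = 0.0151), with library 2 the lowest of the Asb2 cKO and a call lost without Flna-labelled library 2 (adjusted p = 0.0617). Hsd17b7, a reductase of the same route, stood at 29.4, 25.5 and 20.2 CPM against 48.4, 40.2 and 39.9 CPM (log2 difference -0.77 ± 0.16 SE, adjusted p = 0.0173), a call lost without Flna-labelled library 1 (adjusted p = 0.0783) and with Xist as a covariate (adjusted p = 0.0605). Neither gene overlapped between the groups, as held for 40% of all genes tested. The count of 10 fell to 2 without Flna-labelled library 1 or 2, to 4 without Asb2 cKO library 3 and to 6 without Asb2 cKO library 2.

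Nuclear-encoded subunits of the respiratory chain differed little. Of 45, 6 were lower and none was higher, against 7.53% and 8.13% of all genes, with a median of -0.27. The lower ones were 0 without Asb2 cKO library 1 or Flna-labelled library 1 or 3, 2 without Asb2 cKO library 2 and 1 without Flna-labelled library 2. In the citric acid cycle 6 of 18 were lower and none was higher (median -0.31), with 0 to 3 lower when 1 library was left out. Dld, a subunit shared by the pyruvate and 2-oxoglutarate dehydrogenases, stood at 147, 168 and 170.2 CPM in the Asb2 cKO and at 251, 235 and 241 CPM in the Flna-labelled libraries (log2 difference -0.59 ± 0.11 SE, adjusted p = 0.0115), a call lost without Flna-labelled library 1 (adjusted p = 0.0635). Of 7 tested genes of the mitochondrial genome, 2 were lower and none was higher, but the median log2 difference of the 7 was 0.12. Of the 2 lower genes, mt-Nd1, a complex I subunit, stood at 435, 411 and 442 CPM against 589, 659.9 and 773 CPM (log2 difference -0.64 ± 0.13 SE, adjusted p = 0.0157), a call lost without Flna-labelled library 2 (adjusted p = 0.061). The other, mt-Cytb, lost its call whichever library was left out. All mitochondrial transcripts together came to 0.351 to 0.390% in Asb2 cKO libraries and 0.347 to 0.434% in the Flna-labelled libraries, which overlap.

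Red cell transcripts were lower in the Asb2 cKO. Of 7 globin genes 6 were lower, with a median log2 difference of -1.87, and of 27 other genes of primitive red cells 18 were lower and none was higher, with a median of -1.22 (10 lower without Flna-labelled library 2, and 1 higher without Flna-labelled library 3 or Asb2 cKO library 1). The shares over all genes tested were 7.53% lower and 8.13% higher. The summed globin level ran from 503 to 1182 CPM in the Asb2 cKO and from 3025 to 3877 CPM in the Flna-labelled libraries, against 7401 to 7971 CPM in the controls and 349.6 to 597 CPM in the double mutant. Hbb-y, an embryonic beta globin, stood at 231, 347 and 567 CPM in the Asb2 cKO and at 1657, 2025 and 1575 CPM in the Flna-labelled libraries (log2 difference -2.29 ± 0.28 SE, adjusted p = 0.00291). Hba-x, the embryonic alpha globin, stood at 126, 149 and 328 CPM against 772, 1038 and 747 CPM (log2 difference -2.20 ± 0.32 SE, adjusted p = 0.00538). Globin genes are near-identical within a cluster, so a single gene's value is uncertain. Asb2 cKO library 3 held the most of both and was still well below every Flna-labelled library. Hemgn, a nuclear protein of blood precursors, stood at 0.721, 0.19 and 1.65 CPM against 8.75, 9.04 and 8.19 CPM (log2 difference -2.91 ± 0.39 SE, adjusted p = 0.00314), and Klf1, the transcription factor of globin genes, at 0.796, 0.608 and 2.13 CPM against 4.2, 8.73 and 7.64 CPM (log2 difference -2.18 ± 0.40 SE, adjusted p = 0.00995). Car2, a carbonic anhydrase, stood at 12, 11.5 and 14.9 CPM against 28.9, 32.9 and 29.5 CPM (log2 difference -1.22 ± 0.15 SE, adjusted p = 0.00255). The summed level of the 27 genes other than globins overlapped between the groups (819 to 987 CPM against 870 to 1088 CPM). That list includes Tfrc, the transferrin receptor that many dividing cells carry, which stood at 405, 535 and 518 CPM against 238, 302 and 401 CPM and did not pass (log2 difference 0.65 ± 0.19 SE, adjusted p = 0.0504). The share of red cell RNA thus moved with the groups, and its part in the other results was not tested.

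Contractile genes were higher in part. Of 34 tested sarcomere genes 7 were higher and none was lower, against 8.13% and 7.53% of all genes, with a median log2 difference of 0.49. Lmod2, which lengthens thin filaments, stood at 81.4, 121 and 126 CPM in the Asb2 cKO and at 31.6, 28.7 and 47.9 CPM in the Flna-labelled libraries (log2 difference 1.598 ± 0.22 SE, adjusted p = 0.00455). Tcap, the titin cap, stood at 69.6, 108 and 122 CPM against 30.1, 28.9 and 43.3 CPM (log2 difference 1.52 ± 0.23 SE, adjusted p = 0.0058). Ankrd1, a stretch-responsive protein of the titin spring and also a YAP target, stood at 832, 1219 and 1402 CPM against 370.4, 369 and 684 CPM (log2 difference 1.31 ± 0.27 SE, adjusted p = 0.0173), a call lost without Asb2 cKO library 2 or 3 or Flna-labelled library 1 or 2 (adjusted p = 0.0593 to 0.0765) and with Xist as a covariate (adjusted p = 0.0621). Flna-labelled library 3 held more sarcomere transcripts than the other 2 of its group, with a median deviation of 0.26 on the log2 scale over the list against -0.40 and -0.63. Without it 18 of the genes were higher, and without Flna-labelled library 1 or 2, 2 were. Leaving out Asb2 cKO library 1, 2 or 3 gave 12, 3 and 2. Ttn itself (titin) stood at 1327, 3200.5 and 1741 CPM against 344, 337 and 1262 CPM and did not pass (log2 difference 1.89 ± 0.55 SE, adjusted p = 0.0555).

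Genes of calcium handling and conduction moved in both directions. Of 29 tested, 5 were lower and 2 were higher, against 7.53% and 8.13% of all genes, with a median of 0.20. With Xist as a covariate 2 were lower and 4 were higher. Pln (phospholamban), the brake on the calcium pump, stood at 18.5, 37.7 and 30.2 CPM in the Asb2 cKO and at 109, 60.04 and 93.2 CPM in the Flna-labelled libraries (log2 difference -1.598 ± 0.28 SE, adjusted p = 0.0102). Cav3, the caveolin of muscle, stood at 2.65, 2.2 and 2.27 CPM against 19.7, 10.5 and 16.2 CPM (log2 difference -2.43 ± 0.26 SE, adjusted p = 0.00139). Casq2, the calcium store protein, stood at 1.06, 1.86 and 2.2 CPM against 9.11, 4.64 and 8.45 CPM (log2 difference -1.82 ± 0.33 SE, adjusted p = 0.0098). None of these 3 overlapped, nor did 40% of all genes tested. Flna-labelled library 2 was the lowest of its group for each of the 3, and the Pln call was lost with Xist as a covariate (adjusted p = 0.0835). Gja5 (connexin 40), a gap junction gene of trabeculae and atria, was lower at 23.4, 36.5 and 37.8 CPM against 83.4, 46.3 and 68.2 CPM (log2 difference -0.996 ± 0.24 SE, adjusted p = 0.0296), and this call was lost without Asb2 cKO library 2 or 3 or Flna-labelled library 1 or 3 (adjusted p = 0.0527 to 0.0952), without limma's trend and robust options (adjusted p = 0.0638) and with Xist as a covariate (adjusted p = 0.191). Asph, the junctin and aspartyl hydroxylase locus, was higher at 234, 279.6 and 267 CPM against 143, 149 and 155 CPM (log2 difference 0.80 ± 0.11 SE, adjusted p = 0.00425). Lower calls numbered 3 to 5 and higher calls 1 to 8 when 1 library was left out, with 8 higher without Flna-labelled library 3, 6 without Asb2 cKO library 1 and 1 without any of Asb2 cKO libraries 2 and 3 and Flna-labelled libraries 1 and 2.

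Cardiac transcription factors mostly did not pass. Of 29, 2 were lower and none was higher, against 7.53% lower and 8.13% higher among all genes tested. Hand1, a factor of the left ventricle, stood at 34.8, 32.9 and 40.8 CPM in the Asb2 cKO and at 74.7, 64.6 and 77.7 CPM in the Flna-labelled libraries (log2 difference -0.99 ± 0.13 SE, adjusted p = 0.00312). Its relative Hand2 stood at 91.5, 89.7 and 109 CPM against 140.2, 132 and 156 CPM (log2 difference -0.56 ± 0.12 SE, adjusted p = 0.019), a call lost without Flna-labelled library 1 (adjusted p = 0.0741) or 2 (adjusted p = 0.0502), or with the trend and robust options off (adjusted p = 0.0502). Neither gene overlapped between the groups, as held for 40% of all genes tested. Without Flna-labelled library 3, 4 factors were called higher beside the 2 lower. Of 16 genes of trabeculation and chambers, 1 was higher and 2 (Gja5 and Cited1) were lower, with 1 to 4 higher and 0 to 2 lower when 1 library was left out. The higher one, Nppb (brain natriuretic peptide, a marker of wall stress), stood at 139, 205 and 241 CPM against 42.1, 40.5 and 76.7 CPM (log2 difference 1.89 ± 0.27 SE, adjusted p = 0.00509). Cited1, a transcriptional cofactor, lost its call without Asb2 cKO library 1 or 2 or Flna-labelled library 1 or 3 (adjusted p = 0.0688 to 0.136) and under other settings, Xist as a covariate among them (adjusted p = 0.176). In the second heart field list 3 of 26 were higher and 1 was lower, against 8.13% and 7.53% of all genes. Fgf8, a growth factor of that field, stood at 17.4, 10.9 and 15.8 CPM against 3.72, 6.18 and 6.21 CPM (log2 difference 1.38 ± 0.26 SE, adjusted p = 0.0112), and the lower gene, Bop1, is a ribosome assembly factor. Leaving out 1 library gave 1 to 3 higher and 0 to 2 lower genes in this list, Fgf8 among the higher in each case. With Xist as a covariate the Fgf8 call was lost (adjusted p = 0.0743).

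Signalling genes differed in small numbers. Of 22 YAP targets and Hippo components 7 were higher and none was lower, against 8.13% and 7.53% of all genes, with a median of 0.19. The 7 came to 4 without Asb2 cKO library 2 and to 3 without Asb2 cKO library 3 or Flna-labelled library 1 or 2. Ctgf, a matrix protein and YAP target, stood at 135, 259 and 243 CPM in the Asb2 cKO and at 36.2, 46.7 and 55.7 CPM in the Flna-labelled libraries (log2 difference 2.15 ± 0.25 SE, adjusted p = 0.00227). Cyr61, its close relative, stood at 90.04, 125 and 115 CPM against 38.6, 47.7 and 67.4 CPM (log2 difference 1.12 ± 0.20 SE, adjusted p = 0.0109), and Axl, a receptor tyrosine kinase, at 105, 179 and 128 CPM against 69.8, 60.8 and 54.8 CPM (log2 difference 1.12 ± 0.19 SE, adjusted p = 0.00763). The 3 genes were higher in each Asb2 cKO library than in any Flna-labelled library, and 40% of all genes tested did not overlap.

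Among 45 tested genes of TGF-beta and BMP signalling, 8 were higher and 1 was lower, against 8.13% and 7.53% of all genes. Without Asb2 cKO library 2 or 3 or Flna-labelled library 1 these were 3 and 1, and without Flna-labelled library 2 they were 2 and 1. Inhba, an activin subunit, stood at 3.45, 5.4 and 5.57 CPM in the Asb2 cKO and at 1.49, 0.615 and 0.551 CPM in the Flna-labelled libraries (log2 difference 1.97 ± 0.35 SE, adjusted p = 0.00864), and Tgfbi, a secreted matrix protein, was lower at 19, 19.9 and 16.7 CPM against 64.8, 42.7 and 31.3 CPM (log2 difference -1.24 ± 0.23 SE, adjusted p = 0.012). With Xist as a covariate the Tgfbi call was lost (adjusted p = 0.0777).

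Of 34 Wnt genes 4 were lower and none was higher, and of 17 Notch genes 2 were higher and 1 was lower. Among all genes tested, 8.13% were higher and 7.53% lower. Dkk1, a secreted Wnt inhibitor, stood at 7.05, 4.94 and 4.61 CPM against 15.7, 14.9 and 10.5 CPM (log2 difference -1.24 ± 0.24 SE, adjusted p = 0.0115), a call lost without Flna-labelled library 1 (adjusted p = 0.0552) or 2 (adjusted p = 0.051). The other lower Wnt genes were Dkk2, Nkd1 and Wnt4, and without Flna-labelled library 1 or 2 no Wnt gene was called. Without Asb2 cKO library 2 or 3, 2 were lower, and without the latter 1 was higher. No Notch gene was called without Asb2 cKO library 3 or Flna-labelled library 1, 1 was without Asb2 cKO library 2 or Flna-labelled library 2, 2 were without Flna-labelled library 3, and 3 were higher and 2 lower without Asb2 cKO library 1.

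The actin cytoskeleton and the matrix, to which filamins connect, were described with a list each. Of 33 actin and focal adhesion genes 7 were higher and none was lower (median 0.35), and 0 to 2 were higher without Flna-labelled library 1 or 2 or Asb2 cKO library 2 or 3, whereas 12 were without Asb2 cKO library 1. Ilk, a scaffold kinase of integrin adhesions, stood at 202, 234 and 236 CPM in the Asb2 cKO and at 138, 127 and 158 CPM in the Flna-labelled libraries (log2 difference 0.67 ± 0.13 SE, adjusted p = 0.0114), a call lost without Flna-labelled library 1 (adjusted p = 0.0547) or 2 (adjusted p = 0.0579). Cnn1, a smooth muscle calponin, stood at 405, 598 and 634 CPM against 185, 169 and 315 CPM (log2 difference 1.32 ± 0.25 SE, adjusted p = 0.013), a call lost without Asb2 cKO library 2 or 3 or Flna-labelled library 1 (adjusted p = 0.0512 to 0.0646). In the matrix list the genes split, with 6 of 34 higher and 6 lower (3 and 2 without Asb2 cKO library 2, 3 and 3 without Asb2 cKO library 3, 1 and 3 without Flna-labelled library 1 or 2). Over all genes tested, 8.13% were higher and 7.53% lower, the shares against which both lists are to be read. Lama5, a basement membrane laminin, was higher at 226, 288 and 187 CPM against 107, 101 and 96.2 CPM (log2 difference 1.18 ± 0.16 SE, adjusted p = 0.00312). Col3a1, a fibrillar collagen, was lower at 175, 113 and 135 CPM against 700.5, 651 and 329 CPM (log2 difference -1.94 ± 0.28 SE, adjusted p = 0.00538), and Fbln2, a matrix protein of endocardial cushions, was lower at 32.9, 21.8 and 30.1 CPM against 82.4, 60.6 and 47.6 CPM (log2 difference -1.14 ± 0.22 SE, adjusted p = 0.0125). For both lower genes, Flna-labelled library 3 held the least of its group, and the Fbln2 call was lost in a joint fit of the 4 groups (adjusted p = 0.146).

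Genes of DNA replication and mitosis were lower in part, against 7.53% lower and 8.13% higher among all genes. Of 42, 9 were lower and none was higher, with a median of -0.35. These were 14 without Asb2 cKO library 1, 3 without Asb2 cKO library 3 and 2 without Flna-labelled library 1 or 2. E2f2, an activator of S phase genes, stood at 5.39, 4.26 and 4.37 CPM in the Asb2 cKO and at 12.8, 13.4 and 11.3 CPM in the Flna-labelled libraries (log2 difference -1.34 ± 0.19 SE, adjusted p = 0.00455). Ccnd1 (cyclin D1) stood at 146, 101 and 115 CPM against 253, 233 and 194 CPM (log2 difference -0.91 ± 0.16 SE, adjusted p = 0.00861). Mki67, which encodes the Ki-67 protein of cycling cells and was added after its values were seen, did not pass, at 337, 286 and 307 CPM against 271, 303 and 279 CPM (log2 difference 0.12 ± 0.12 SE, adjusted p = 0.483). Of 15 p53 targets, Bbc3 (PUMA), which promotes cell death, was higher at 14.6, 27.9 and 16.6 CPM against 6.88, 6.27 and 7.27 CPM (log2 difference 1.41 ± 0.24 SE, adjusted p = 0.00787), and Aen, a nuclease, was lower at 28.1, 21.4 and 21.8 CPM against 41.4, 42 and 54.4 CPM (log2 difference -0.93 ± 0.16 SE, adjusted p = 0.00849). These were the only calls among the 15 targets, against 15.7% of all genes tested. Of 17 immediate early genes 7 were higher and none was lower, among them Ier3 at 27, 59.2 and 32.1 CPM against 3.64, 3.54 and 5 CPM (log2 difference 3.06 ± 0.28 SE, adjusted p = 0.000878) and Klf6 at 103, 116 and 124 CPM against 58.8, 69.8 and 76 CPM (log2 difference 0.75 ± 0.13 SE, adjusted p = 0.00877). The immediate early count was 3 without Asb2 cKO library 3 or Flna-labelled library 1 or 2.

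Markers of other cell types in the dissected heart differed less evenly than red cell genes. Of 22 endocardial and endothelial genes 8 were higher and 1 (Cd34) was lower, against 8.13% and 7.53% of all genes, with a median of 0.50. Sox17, an endothelial transcription factor, stood at 18.2, 26.1 and 22.7 CPM in the Asb2 cKO and at 6.58, 8.49 and 4.89 CPM in the Flna-labelled libraries (log2 difference 1.69 ± 0.23 SE, adjusted p = 0.00314), and Sox7 at 41.5, 53.5 and 50.3 CPM against 21, 16.4 and 21.6 CPM (log2 difference 1.28 ± 0.16 SE, adjusted p = 0.00235). Flt1, a VEGF receptor, stood at 122, 199.8 and 121 CPM against 50.4, 52.1 and 65.1 CPM (log2 difference 1.36 ± 0.20 SE, adjusted p = 0.00513). These 3 did not overlap, nor did 40% of all genes tested. The general endothelial markers Cdh5 (log2 difference 0.43, adjusted p = 0.106) and Pecam1 (log2 difference 0.59, adjusted p = 0.127) did not pass. The summed level of the 22 genes was 1679 to 2470.9 CPM against 1318 to 1606 CPM. The 8 higher were 4 without Flna-labelled library 1, 9 without Asb2 cKO library 1 and 5 without Flna-labelled library 2 or Asb2 cKO library 2 or 3, and the Cd34 call was lost without Asb2 cKO library 1 or 3 or any 1 Flna-labelled library.

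Of 11 epicardial genes 3 keratins were higher and 2 genes were lower, against 8.13% and 7.53% of all genes. The median log2 difference of the 11 was -0.47, opposite in sign to the keratins. Krt19 stood at 416, 728 and 736 CPM in the Asb2 cKO and at 65, 73.9 and 110.2 CPM in the Flna-labelled libraries (log2 difference 2.90 ± 0.26 SE, adjusted p = 0.000878). Wt1, the defining epicardial transcription factor, was lower at 22.3, 22.8 and 19.6 CPM against 32.2, 35.5 and 28.6 CPM (log2 difference -0.56 ± 0.14 SE, adjusted p = 0.0306), a call lost without Asb2 cKO library 3 or Flna-labelled library 1 or 2 (adjusted p = 0.078 to 0.129), in the joint fit of the 4 groups (adjusted p = 0.263) and with Xist as a covariate (adjusted p = 0.117). The list's summed level, 1066 to 1347 CPM against 506 to 634 CPM, was carried by the keratins. The other called members, Krt18, Krt8 and Upk1b, each lost the call without at least 2 of the 6 libraries and with Xist as a covariate, and leaving out 1 library gave 1 to 3 higher and 0 to 2 lower genes.

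Stmn4, a stathmin of neurons, had the largest log2 fold change among called genes, at 67.8, 115 and 80.2 CPM in the Asb2 cKO and at 4.02, 0.923 and 0.735 CPM in the Flna-labelled libraries (log2 difference 5.43 ± 0.45 SE, adjusted p = 0.000786). Of 14 neural genes, Nes was higher (log2 difference 0.68) and the neuronal tubulin Tubb3 was lower at 9.14, 5.02 and 7.23 CPM against 38.1, 14.4 and 17 CPM (log2 difference -1.54 ± 0.36 SE, adjusted p = 0.0246), calls that were lost without Asb2 cKO library 3 or Flna-labelled library 1, and for Tubb3 also without Asb2 cKO library 2 and for Nes without Flna-labelled library 2. Without the trend and robust options both calls were lost as well (adjusted p = 0.0502 and adjusted p = 0.0517). The median log2 difference of the 14 neural genes was -0.38, with 2 higher (Stmn4 and Nes) and 1 lower. Of 18 neural crest genes 1 was lower (Msx1), and of 21 pharyngeal and surface epithelium genes 2 were higher and 1 was lower, among them Pax8 at 5.65, 3.42 and 4.37 CPM against 1.24, 0.431 and 0.551 CPM (log2 difference 2.04 ± 0.34 SE, adjusted p = 0.00742). Among all genes tested, 8.13% were higher and 7.53% lower. The Msx1 call was lost without Asb2 cKO library 2 or 3 or Flna-labelled library 1 or 2, and 2 neural crest genes were lower without Asb2 cKO library 1 or Flna-labelled library 3. In the pharyngeal list 1 to 3 genes were higher and 0 to 2 lower when 1 library was left out.

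Of 21 liver and yolk sac genes 3 were lower and none was higher, against 7.53% and 8.13% of all genes, with a median log2 difference of -1.24. The lower ones were 7 without Asb2 cKO library 1, none without Asb2 cKO library 2, and 2 without Flna-labelled library 2 or 3, with 1 higher. Of these genes Hnf4a, Alb, Trf, Fgg and Itih2 were at 0 in at least 1 Asb2 cKO library and in no Flna-labelled library. Alb (albumin) stood at 1.93, 0 and 1.03 CPM in the Asb2 cKO and at 5.95, 26 and 7.6 CPM in the Flna-labelled libraries (log2 difference -3.18 ± 0.66 SE, adjusted p = 0.0178), a call lost without Asb2 cKO library 2 (adjusted p = 0.0568), with the replicate number as a block (adjusted p = 0.0565) and in DESeq2 (adjusted p = 0.072). Fgg, a fibrinogen chain, was lower with the same library at 0 (log2 difference -2.79), and without that library its adjusted p was 0.0551. Most Alb and Fgg signal of the Flna-labelled group lay in library 2. The third, Apoa2, lost its call when any of 5 libraries was left out and under several other settings, edgeR and the joint fit among them. Of 5 tested genes of macrophages and other blood cells Lyz2 alone was called, against 15.7% of all genes. It was higher (log2 difference 1.12), while the median of the 5 was -0.78. Leaving out any library except Asb2 cKO library 1 ended the Lyz2 call, as did edgeR (adjusted p = 0.0502), the replicate block (adjusted p = 0.0549) and Xist as a covariate (adjusted p = 0.155).

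Genes outside the lists were among the largest differences. A2m, a protease inhibitor of plasma, stood at 41.4, 71.6 and 44.7 CPM in the Asb2 cKO and at 4.53, 5.35 and 3.31 CPM in the Flna-labelled libraries (log2 difference 3.42 ± 0.24 SE, adjusted p = 0.000225). H2-Ab1, a chain of the MHC class II complex that presents peptides to T cells, stood at 25.2, 46 and 36.5 CPM against 2.28, 2.77 and 4.22 CPM (log2 difference 3.34 ± 0.27 SE, adjusted p = 0.000532). Neat1, the long noncoding RNA of nuclear paraspeckles, stood at 16.2, 41.7 and 29.7 CPM against 1.77, 1.6 and 1.62 CPM (log2 difference 3.68 ± 0.31 SE, adjusted p = 0.000669). Each of the 3 was several times higher in all Asb2 cKO libraries, and non-overlap was part of the rule that picked them. In the other direction, Csf2rb, a cytokine receptor chain of blood cells, stood at 0.948, 0.494 and 0.619 CPM against 5.77, 7.41 and 5.18 CPM (log2 difference -2.48 ± 0.29 SE, adjusted p = 0.00208), Steap3, a ferrireductase of red cell precursors, at 2.28, 0.456 and 1.75 CPM against 9.99, 7.44 and 8.12 CPM (log2 difference -2.30 ± 0.39 SE, adjusted p = 0.00762), and Tppp3, a tubulin-binding protein, at 3.38, 3.12 and 1.31 CPM against 15.8, 13.3 and 17.7 CPM (log2 difference -2.45 ± 0.31 SE, adjusted p = 0.00248).

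**Figure D4:**
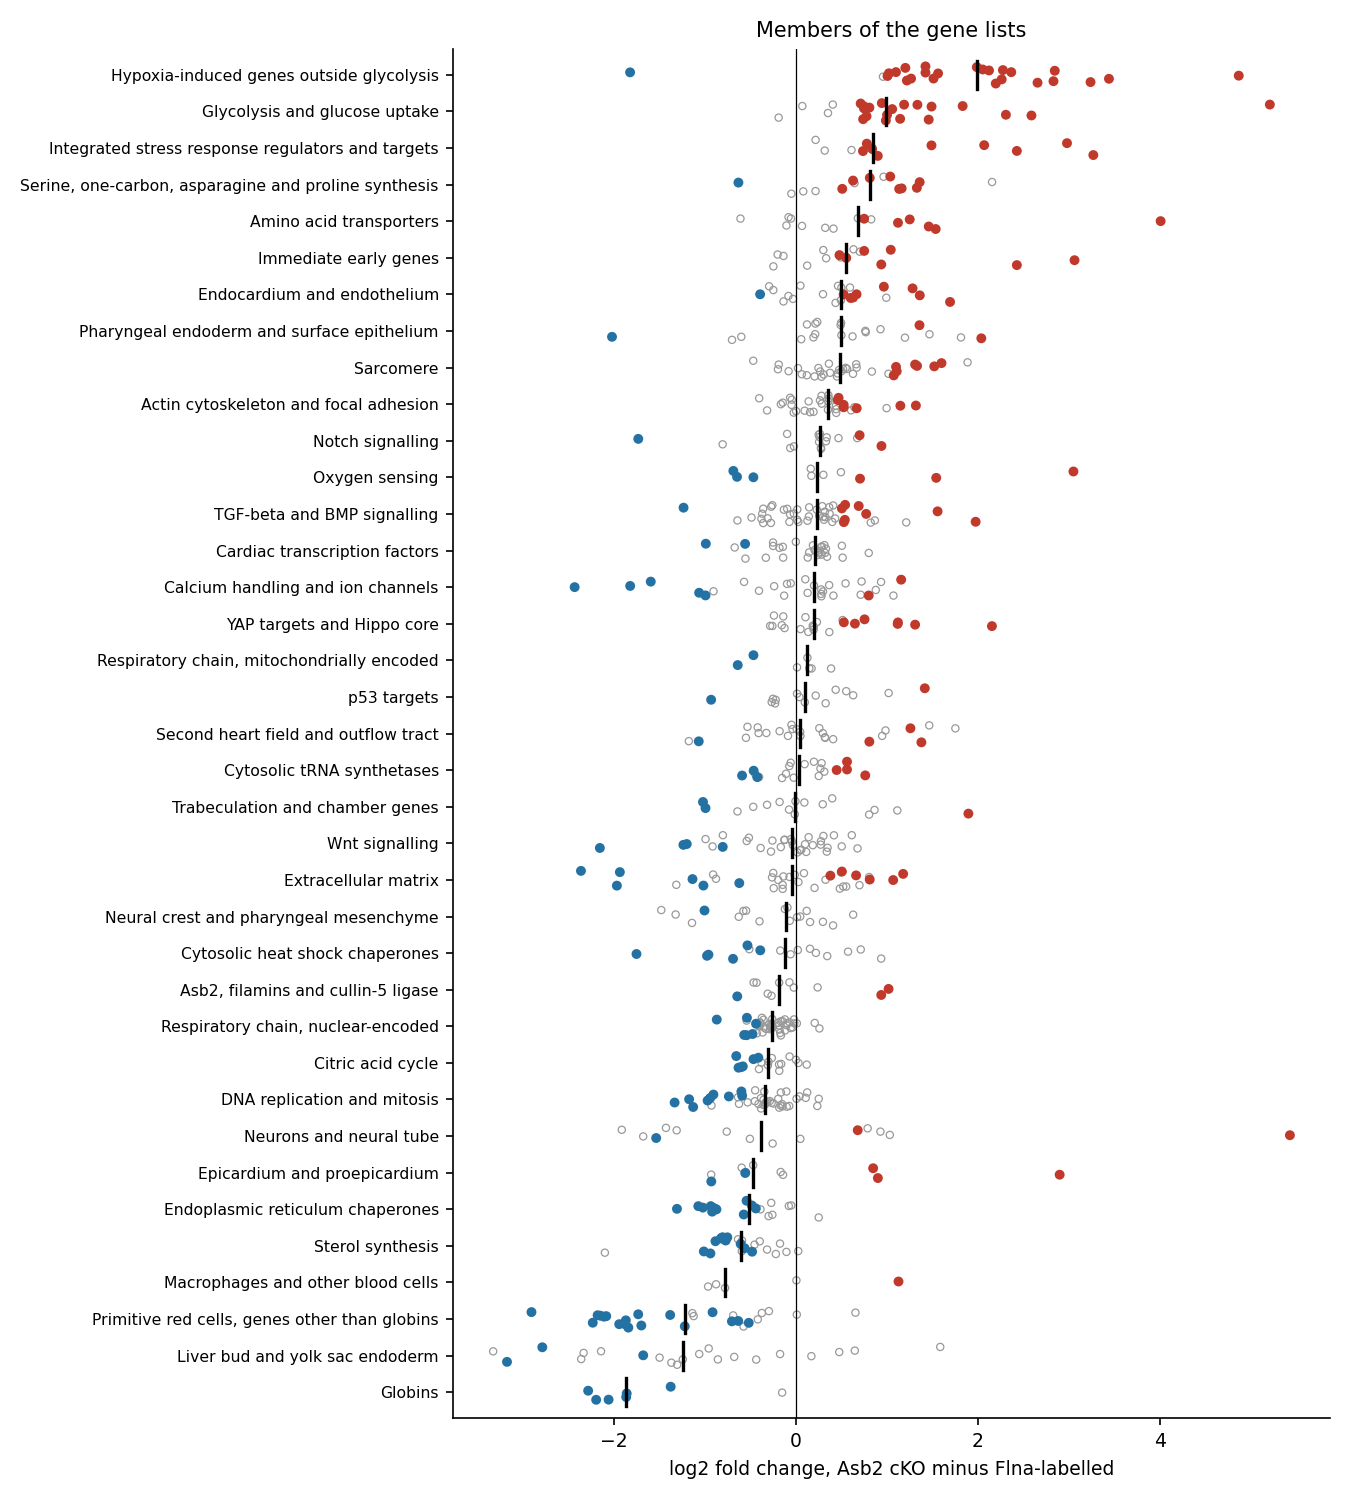
Log2 fold change (Asb2 cKO minus Flna-labelled) of each tested member of the gene lists, with called members filled (red higher, blue lower), other members open and a bar at the list's median. Medians run from 1.99 for hypoxia-induced genes to -1.87 for globins.

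The levels in the remaining groups give these differences a place. Among the 1138 genes called higher in the Asb2 cKO, the control mean lay nearer to the Flna-labelled than to the Asb2 cKO mean for 92.2%, and the double mutant mean nearer to the Asb2 cKO for 97.5%. For the 1054 lower genes these shares were 93.0% and 96.9%, and over all 13992 tested genes 70.6% and 77.2%. Ndufa4l2 stood at 3.09, 2.63 and 1.78 CPM in the control and at 85.5, 75.9 and 69 CPM in the double mutant, and Trib3 at 5.4, 2.96 and 5.13 CPM and 131, 89.1 and 75.3 CPM. Both genes had levels like those of the Flna-labelled libraries in the control and like those of the Asb2 cKO in the double mutant, whose label combines both deletions. Hbb-y differed from that pattern in its size, with 3668, 4119 and 4491 CPM in the control, more than in any Flna-labelled library, and 322, 234 and 169 CPM in the double mutant. The genes called here were chosen on the Asb2 cKO and Flna-labelled values, so these shares describe the other groups and carry no test.

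**Figure D5:**
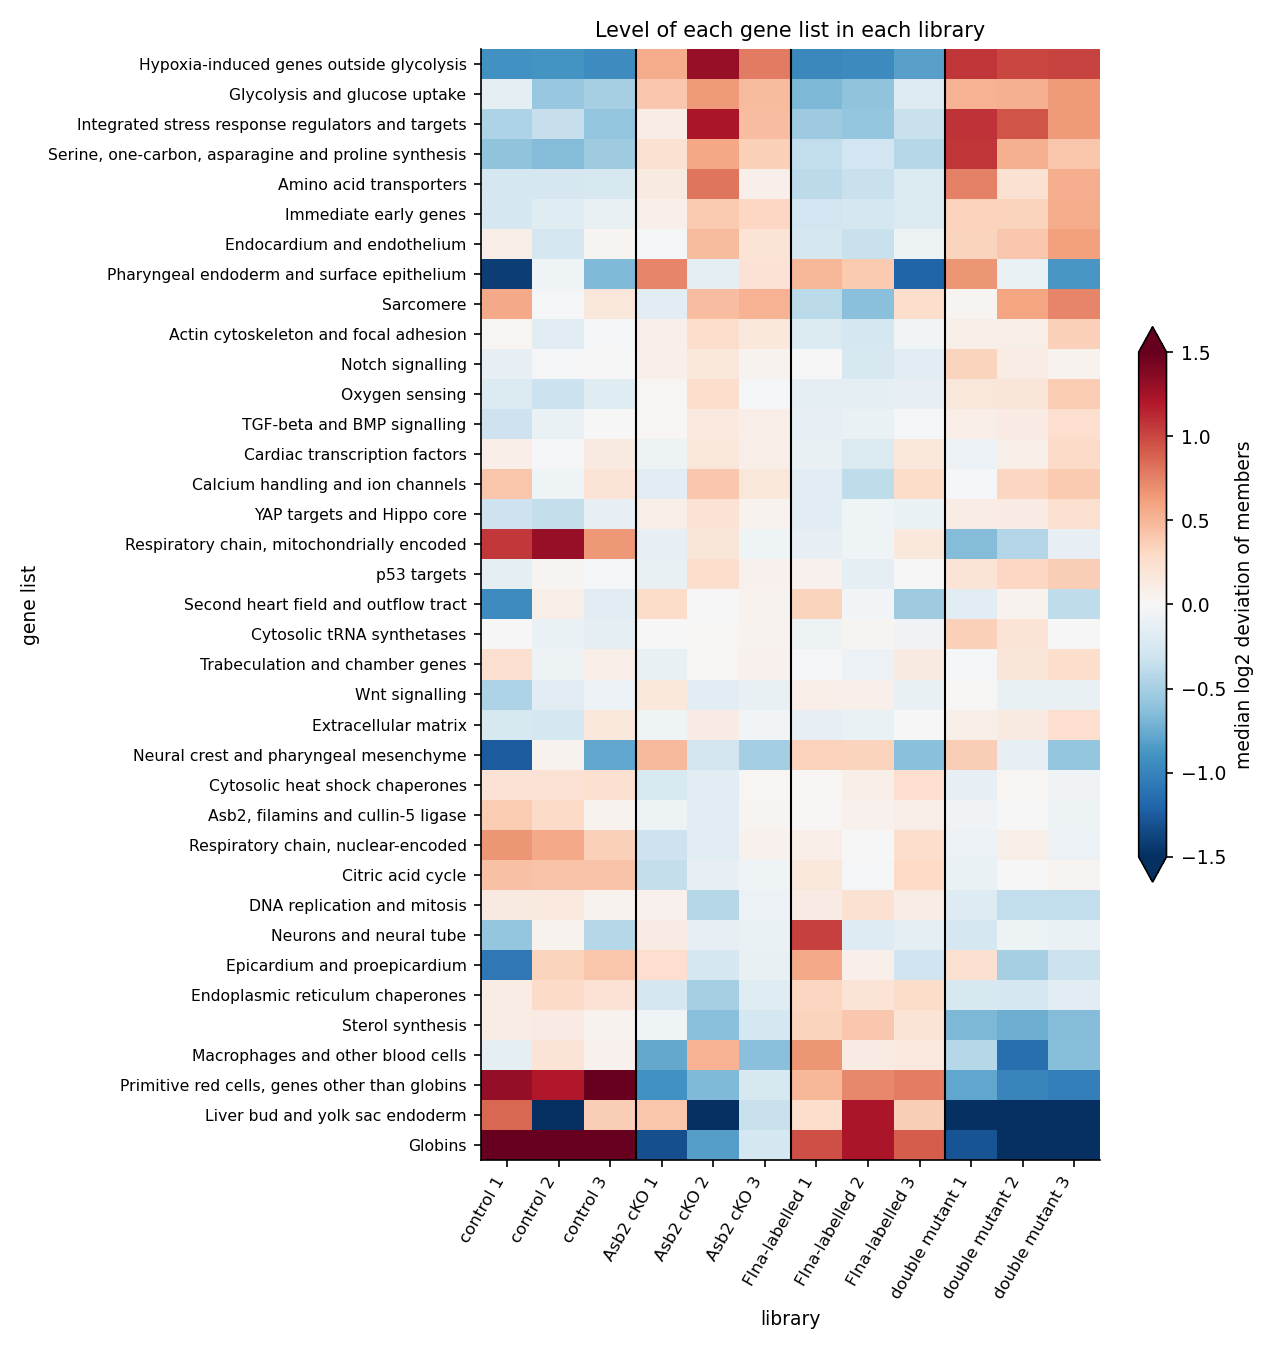
Median over list members of the deviation of log2(CPM + 0.5) from the gene's mean over the 12 libraries, for each list (rows) and library (columns), with the colour scale ending at 1.5 in both directions. The Asb2 cKO columns look like the double mutant columns and the Flna-labelled columns like the control for hypoxia-induced genes, while globins are highest in the control.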

How the data were processed

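RNA of 12 libraries of embryonic day 9.5 mouse hearts was sequenced, and the 3 Asb2 cKO and 3 Flna-labelled libraries were compared here. The submitters' processing notes name STAR, HTSeq, edgeR and mm10, without versions. Gene annotation, strand and the rule by which genes entered a table are not given in the sources used here. The authors' deposited expression values carry the unit signal. Their file headers call them CPM, but column totals differ, and 100% of the values above 0 give whole reads when divided by what 1 read is worth in that library (tolerance 0.01 read), so they are read counts over a scaled library size. Plain CPM had been assumed in the design, and its test on a log scale was kept. Deposited log2 fold changes and p-values of the authors' own comparisons were not used, and the deposited gene length served only to remove a length trend. Beyond these, 13 columns without headers were left out. Libraries agree between tables within 4.4e-06 CPM, so tables were joined on gene identifier. Positions come from GENCODE M21 (GRCm38).

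limma 3.58.1 (trend and robust, R 4.3.3) was fitted on log2(CPM + 0.5) with Benjamini-Hochberg adjusted p under 0.05 as threshold. On recovered reads, edgeR 4.0.16 quasi-likelihood called 2052 genes and DESeq2 1.42.0 called 3219. On simulated counts for this comparison of 13992 genes, limma recovered 54% of 2-fold and 92% of 4-fold changes. Of its calls there, 9.32% were false, more than the threshold of 0.05 aims for. The simulation changed far fewer genes than were called in the data. Replicate numbers were not taken as pairs of libraries. Residuals of same-numbered libraries correlated at 0.14, -0.31 and 0.21, too few values to tell whether they share a litter or batch. The members and the 38 lists were chosen with earlier results of these data known, so list counts are descriptions. Each is to be read against the shares over all genes tested, 8.13% called higher and 7.53% called lower. The rule for named genes took Asb2, filamin genes and Xist, the 12 largest non-overlapping called differences in each direction (mean of 5 CPM or more in 1 group, clone names left out), and for each list up to 4 (pathways) or 3 (cell types) called genes of smallest p, 138 genes in all, of which part is given. Some results are not reported here. Promoter and motif searches used RefSeq windows. Alternatives were other pseudocounts, filters and scalings, library weights, a replicate block, other tools, a joint fit, Xist as a covariate, removal of a length trend and leaving out each library. python 3.11.15, numpy 2.4.6, pandas 2.3.3, scipy 1.17.1 and matplotlib 3.10.9 were used.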

Additional observations from a re-analysis of the deposited data

How the results depend on the processing

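Of 2192 calls in the comparison, leaving out 1 library gave 615 to 2372 calls, and every call shared with the full comparison kept its direction under all settings tried. Without limma's trend and robust options 1354 genes were called, and a joint fit of the 4 groups called 3348. Whether the replicate numbers pair the libraries is not known, and a fit with the replicate number as a block called 1687 genes. Other settings gave 2046 to 3219, among them 2287 on the total of all listed genes, an alternative added after the data were seen. With Xist as a covariate 3107 genes were called, 1683 of them shared, and the Asb2 difference turned from -0.31 to 0.23, neither past the threshold. The cause of these shifts was not tested. Of 135 named genes that were called, 73 kept the call under every alternative and 77 whichever library was left out. Counts of list members changed by more than 1.5 times in many lists when 1 library was left out, as given beside each. Depth limits genes near 1 CPM, since 1 read is worth 0.0253 to 0.038 CPM.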
